A study of Homo sapiens with 4 samples.

Results

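The genes described here encode proteins that coat lipid droplets, build the triacylglycerol stored in them and release fatty acids from them. A list of 10 genes was taken by symbol or older symbol from the platform annotation of the array (ADFP is PLIN2 and C7orf68 is HILPDA). It covers the perilipins PLIN2, PLIN3, PLIN4 and PLIN5, the lipase gene PNPLA2 with ABHD5, HILPDA and G0S2, and the acyltransferase genes DGAT1 and DGAT2. Of these, 9 genes were measured, on 10 of the 21214 transcript clusters that carry a symbol, and PLIN5 was not analysed here. A transcript cluster is the set of probes that the array assigns to 1 transcription unit. DGAT1 had 2 clusters whose values were identical on all 4 arrays, and they were counted as 1 measurement. The members were chosen by gene function with the measured differences between the groups of these arrays already known, PLIN2 among the largest of them, so their values are given as a description, and no p-value is read for any of them.

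The study measured transcript levels on 4 one-colour Affymetrix arrays in OVCAR-3 cells, a long-established line from a human ovarian carcinoma. The arrays labelled H1.3 (2 arrays, replicates 1 and 2) came from cells said to overexpress human histone H1.3, a replication-dependent linker histone. The vector-only arrays (2 arrays, replicates 1 and 2) came from cells transfected with vectors that lack H1.3. The labels call the replicates biological and do not say whether they came from separate transfections or clones, so any p-value measures the spread between these arrays, which may be technical. All cells grew in RPMI-1640 with 20% fetal bovine serum, penicillin and streptomycin. Neither the promoter of the vector nor what the (H) in the titles of the H1.3 arrays stands for is given in the sources used here.

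Values are log2 levels, so that 1 unit is a doubling. Array medians over all clusters lay between 6.21 and 6.27, and the median level of the clusters with a symbol was 6.84. The gene that encodes H1.3, H1-3, measured 7.47 and 7.69 in the arrays labelled H1.3, against 8.65 and 7.88 in the vector-only arrays, a difference of -0.69 ± 0.24 (SE; limma adjusted p 0.319). The targeted gene thus went against the label in mean level, by a difference that did not pass. Its vector-only replicates were 0.77 apart, and without vector-only replicate 1 the difference was -0.30. Every direction below is that of the library labels. All 12 ovarian carcinoma markers examined, among them PAX8 and MUC16, lay above the median level of 6.84. The same held for 1 of 10 adipocyte markers (CFD), 0 of 10 macrophage and leukocyte markers, 1 of 8 fibroblast markers and 0 of 6 endothelial markers. Mean log2 levels of the adipocyte markers were 5.55 and 5.35 in the arrays labelled H1.3 and 5.44 and 5.50 in the vector-only arrays.

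A lipid droplet is a store of neutral lipid, chiefly triacylglycerol and steryl esters, enclosed by a phospholipid monolayer. Perilipins sit on that surface and limit access of lipases. PLIN2 is the perilipin of most cells other than adipocytes, and it is degraded when it is not bound to a droplet, whereas PLIN3 is also stable in the cytosol. The enzymes encoded by DGAT1 and DGAT2 carry out the last step of triacylglycerol synthesis. Adipose triglyceride lipase, the product of PNPLA2, starts lipolysis. It is activated by the protein from ABHD5 and inhibited by those from G0S2 and HILPDA. Transcription of PLIN2 is known to respond to fatty acids through peroxisome proliferator-activated receptors (PPARs), and that of HILPDA to hypoxia through hypoxia-inducible factors.

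The sequences around the transcription start of PLIN2, the gene with the largest difference, and of PLIN3, its close relative that did not share it, are shown first, from RefSeq on GRCh38.p14. Each runs from 250 bases before the start to 50 after it, 5′ to 3′ on the gene's own strand, which is the minus strand for both. PLIN2 is at chr9:19127443-19127742 and PLIN3 at chr19:4867618-4867917. Capitals mark ACGTG on either strand, 1 form of the core that hypoxia-inducible factors are known to bind. The other form, GCGTG, was not searched or marked, and it can be read in both windows.
PLIN2: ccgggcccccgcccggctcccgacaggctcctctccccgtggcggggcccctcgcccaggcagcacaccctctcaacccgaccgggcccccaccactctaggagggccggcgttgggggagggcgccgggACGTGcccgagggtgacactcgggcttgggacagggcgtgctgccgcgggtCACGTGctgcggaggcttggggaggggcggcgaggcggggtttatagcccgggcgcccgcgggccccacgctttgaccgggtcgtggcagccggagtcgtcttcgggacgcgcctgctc
PLIN3: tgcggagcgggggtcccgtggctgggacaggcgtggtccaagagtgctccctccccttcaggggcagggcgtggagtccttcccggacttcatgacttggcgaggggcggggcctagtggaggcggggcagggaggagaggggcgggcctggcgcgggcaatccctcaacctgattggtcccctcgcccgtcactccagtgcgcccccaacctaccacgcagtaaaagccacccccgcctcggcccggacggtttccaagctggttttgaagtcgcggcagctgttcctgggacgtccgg
The PLIN2 window held ACGTG at -120 to -116 and, on both strands, inside the palindrome CACGTG at -69 to -64, counted from the start as +1 with no position 0. It also held TATAAA on the opposite strand at -29 to -24. The PLIN3 window held none of these. Promoter windows were found for 7 of the 10 genes (9 windows), and PLIN2 was the 1 gene of the 7 to hold any of these 3 motifs. The table matched no window to HILPDA, DGAT1 or DGAT2. Over all 35116 promoter windows of that length, searched on both strands, 21.4% held ACGTG. The palindrome CACGTG was in 7.26% of the windows. A match to TATAAA was found in 11.5%. The direct repeat AGGTCANAGGTCA, which PPARs bind as dimers with the retinoid X receptor, was in 0.0228% of all windows and in 0 of the 9. Letters in a window are a description and not a binding site.

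Among the coat proteins, PLIN2 stood apart. Its log2 level was 5.80 and 6.43 in the arrays labelled H1.3, against 8.35 and 8.23 in the vector-only arrays. Both arrays labelled H1.3 lay below both vector-only arrays, and the gap between the replicates was 0.63 among the arrays labelled H1.3 and 0.12 among the vector-only arrays. Means were 6.12 ± 0.45 and 8.29 ± 0.08 (SD, n = 2 each), a difference of -2.17 ± 0.20 (SE), or 4.52-fold lower in the arrays labelled H1.3. The 4 pairings of an array labelled H1.3 with a vector-only array gave differences from -2.55 to -1.80. Of all 21214 clusters with a symbol, 4 had a lower difference than PLIN2 and 0.0519% had one at least as large in either direction. The vector-only level lay above the median of 6.84 and the level in the arrays labelled H1.3 below it, and without probe intensities it could not be seen how near background the lower level was. In bulk RNA, less PLIN2 transcript per cell and fewer cells that express it cannot be told apart.

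PLIN3, which is expressed in most tissues and coats small or new droplets, was slightly higher on both arrays labelled H1.3. It measured 8.64 and 8.68 there, against 8.41 and 8.50 in the vector-only arrays, and the groups did not overlap. The difference was 0.20 ± 0.11 (SE), with pairings from 0.14 to 0.27. A difference of that size or more in either direction was found in 27.4% of all clusters with a symbol.

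PLIN4, a perilipin of adipose tissue and muscle, gave a dim signal, below the median level of 6.84. It measured 5.76 and 5.76 in the arrays labelled H1.3, against 5.58 and 5.76 in the vector-only arrays. The groups touched, since 1 vector-only array equalled both arrays labelled H1.3, and the difference was 0.09 ± 0.12 (SE). PLIN1, the perilipin of adipocytes and no member of the list, also lay below that median in both groups, at 5.81 and 5.76 in the arrays labelled H1.3, against 5.87 and 5.71 in the vector-only arrays.

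**Figure D1:**
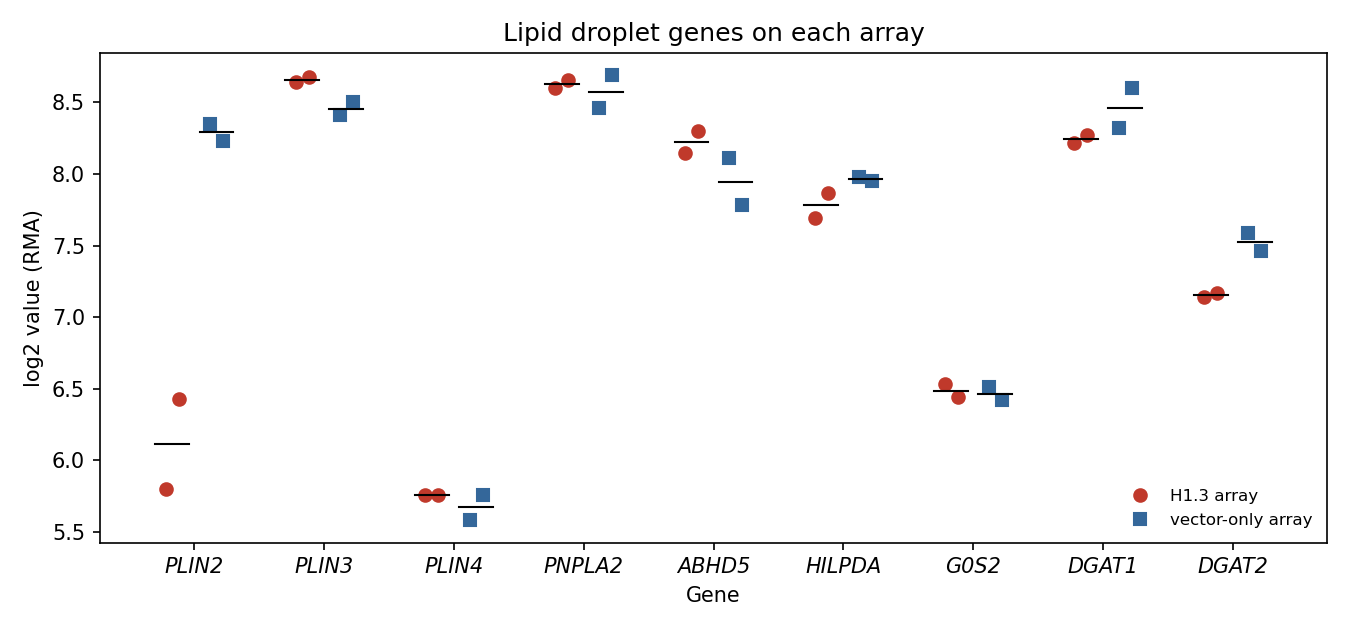
Log2 level (vertical axis) of the 9 measured lipid droplet genes on each array, with arrays labelled H1.3 as red circles, vector-only arrays as blue squares and group means as black bars. PLIN2 lies at 5.80 and 6.43 in the arrays labelled H1.3, against 8.35 and 8.23 in the vector-only arrays, and the group means of every other gene lie within 0.37 of each other.

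Mean levels of the lipase and its activator were not lower in the arrays labelled H1.3. PNPLA2 measured 8.60 and 8.66 in the arrays labelled H1.3, against 8.46 and 8.69 in the vector-only arrays, and the vector-only arrays lay on either side of both arrays labelled H1.3. The difference was 0.06 ± 0.13 (SE), and 75.6% of all clusters had one at least as large. ABHD5, whose product (CGI-58) activates this lipase, measured 8.15 and 8.30 in the arrays labelled H1.3, against 8.11 and 7.78 in the vector-only arrays. The groups were separated by only 0.04, less than the replicate gaps of 0.15 among the arrays labelled H1.3 and 0.33 among the vector-only arrays, and the difference was 0.28 ± 0.15 (SE).

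The inhibitors of the lipase differed little between the groups. G0S2, named for its induction when resting lymphocytes enter the cell cycle, measured 6.53 and 6.44 in the arrays labelled H1.3, against 6.51 and 6.42 in the vector-only arrays. The groups overlapped, the difference was 0.02 ± 0.12 (SE), and the level lay below the median of 6.84 on every array. HILPDA measured 7.69 and 7.87 in the arrays labelled H1.3, against 7.98 and 7.95 in the vector-only arrays. Both arrays labelled H1.3 were lower, but by only 0.08 at the nearest pair, and the difference was -0.19 ± 0.12 (SE).

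Both acyltransferase genes were lower in the arrays labelled H1.3, by far less than PLIN2. DGAT1, a multi-span enzyme of the endoplasmic reticulum, measured 8.22 and 8.27 there, against 8.32 and 8.60 in the vector-only arrays, a difference of -0.21 ± 0.13 (SE). Its nearest pair of arrays differed by 0.05. DGAT2, a structurally unrelated enzyme that can also act at the droplet surface, measured 7.14 and 7.17 in the arrays labelled H1.3, against 7.59 and 7.46 in the vector-only arrays. Its difference of -0.37 ± 0.12 (SE) was the largest of the list after PLIN2, exceeded both replicate gaps (0.03 and 0.13), and was matched or exceeded in size by 9.54% of all clusters.

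As a list, differences were above 0 in 5 of the 9 genes and below 0 in 4, and their median was 0.02, beside a median of 0.01 over all clusters with a symbol. The median absolute difference was 0.20 in the list and 0.12 over all clusters. In 6 of the 9 genes the groups did not overlap, against 40.6% of all clusters. Of the 9 genes, 1 (PLIN2) passed limma's threshold of an adjusted p under 0.05, as did 0.504% of all clusters in either direction (0.264% lower). Since the list was made with these differences known, nothing is read from that count. Leaving out any 1 of the 4 arrays ended the call of PLIN2 and of every other cluster, with PLIN2 at -2.49 to -1.86 in those fits. Testing every transcript cluster, named or not, dropping the variance moderation or adding the replicate number to the fit also ended the call of PLIN2. Apart from PLIN2, the differences of the list ran from -0.37 to 0.28.

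**Figure D2:**
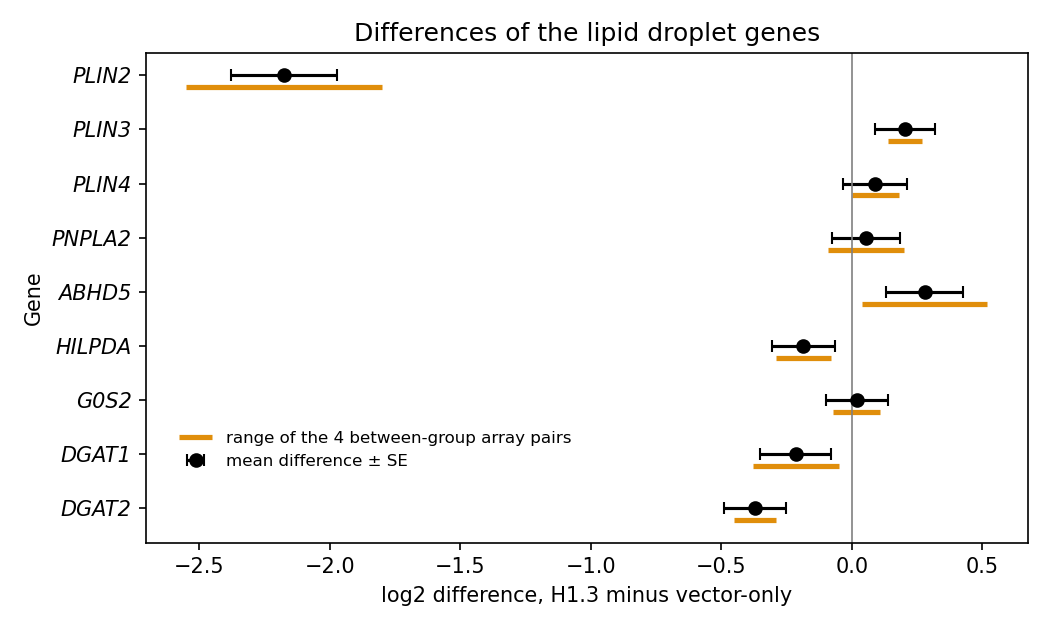
Log2 difference, arrays labelled H1.3 minus vector-only arrays (horizontal axis), for the 9 measured genes, as the mean with its limma standard error (black) and the range over the 4 between-group pairs of arrays (orange). PLIN2 lies at -2.17 with a range from -2.55 to -1.80, and the means of the other genes lie between -0.37 and 0.28.

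Neighbouring genes on some chromosomes were shifted together on these arrays, so each gene was set beside its 30 nearest measured neighbours in RefSeq order (15 on either side, mean level at or above the median). PLIN2, on chromosome 9, had a median neighbour difference of -0.12, with 21 of 30 neighbours negative and none called, far from its own -2.17. The median was -0.04 over 7 genes on either side and -0.03 with dim genes included. DGAT1, on chromosome 8, differed by -0.21 among neighbours with a median of -0.17, of which 25 of 30 were negative (median -0.10 with dim genes included). The neighbours of DGAT2, on chromosome 11, had a median of -0.13 with 22 of 30 negative and 1 called, and DGAT2 itself was at -0.37. Over 7 genes on either side of DGAT2 the median was -0.185. G0S2, on chromosome 1, was at 0.02 although its neighbours had a median of 0.24 (0.09 with dim genes included) and 27 of 30 were positive. Medians lay between -0.03 and 0.05 around PLIN3, PLIN4, PNPLA2, ABHD5 and HILPDA. The part of these regional shifts in the values of the genes was not tested.

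**Figure D3:**
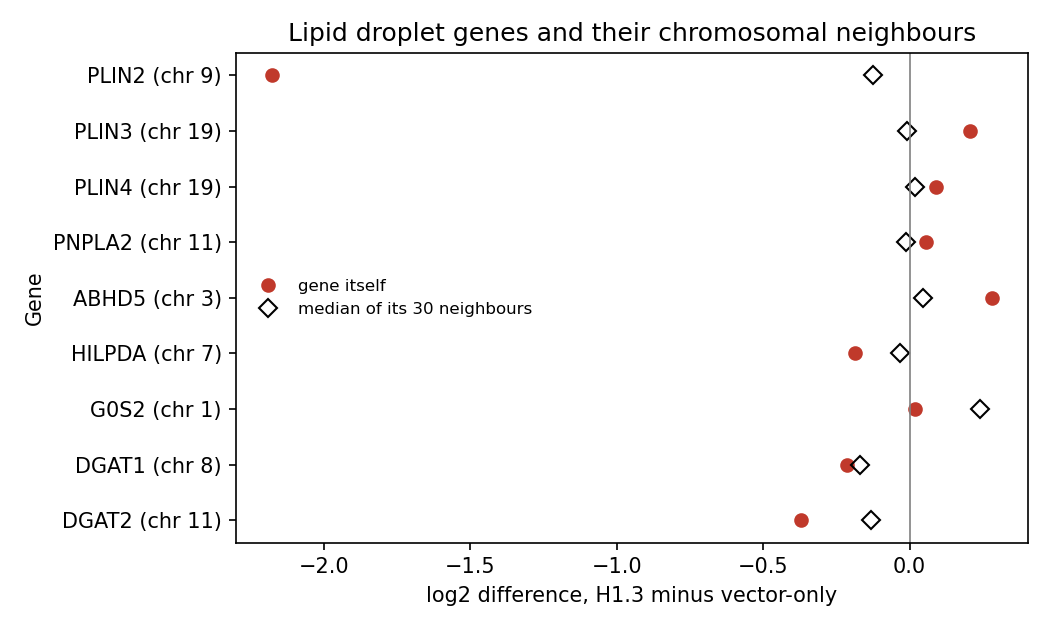
Log2 difference, arrays labelled H1.3 minus vector-only arrays (horizontal axis), of each lipid droplet gene (red circle) and the median of its 30 chromosomal neighbours (open diamond). The neighbours of PLIN2 lie at -0.12 while PLIN2 lies at -2.17, and those of DGAT1 lie at -0.17, near its own -0.21.

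To place the list within lipid metabolism, 9 further lists with 168 genes were examined, of which 154 were measured. Of these, 2 rose, 1 fell and 151 did not pass in the limma fit over all clusters, beside 0.24% of all clusters called higher and 0.264% called lower. Their median difference was 0.03. The lists too were chosen with earlier results of these data known, so their calls, counts and p-values are given as a description.

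ACSL1, which encodes an acyl-CoA synthetase that activates long-chain fatty acids, rose. It measured 9.14 and 9.39 in the arrays labelled H1.3, against 7.93 and 7.48 in the vector-only arrays, a difference of 1.56 ± 0.18 (SE; limma adjusted p 0.0264, range over the alternatives 0.00674 to 0.802). It was the 1 gene to pass of 20 measured for uptake, binding and activation of fatty acids, a list with 13 positive differences and a median of 0.10, which was 0.02 without H1.3 replicate 1 and 0.18 without H1.3 replicate 2. The call of ACSL1 was lost without any 1 array, with differences from 1.33 to 1.78. It was also lost with every transcript cluster tested, without variance moderation and with the replicate number added to the fit. The 23 measured neighbours of ACSL1 on chromosome 4 had a median difference of 0.12, with 17 positive and none called, and their part in its value was not tested.

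In triacylglycerol and steryl ester synthesis AGPAT5, a lysophosphatidic acid acyltransferase gene, fell. Its level was 7.81 and 8.24 in the arrays labelled H1.3, against 9.07 and 9.23 in the vector-only arrays, a difference of -1.12 ± 0.17 (SE; limma adjusted p 0.0477, range over the alternatives 0.0184 to 0.802). AGPAT5 lies on chromosome 8 among 19 measured neighbours with a median difference of -0.48 (-0.20 with dim genes included). Of these neighbours, 16 were negative and 2 were called, and their part in the value of AGPAT5 was not tested. The other 14 measured genes of this list did not pass, and the median was 0.07 (0.01 to 0.15 without single arrays), with 9 positive.

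EPAS1, which encodes the hypoxia-inducible factor HIF-2 alpha, rose among the 18 measured regulators of lipid storage. It measured 7.96 and 8.25 in the arrays labelled H1.3, against 7.05 and 7.21 in the vector-only arrays, a difference of 0.97 ± 0.14 (SE; limma adjusted p 0.0477, range over the alternatives 0.0204 to 0.802). The 30 measured neighbours of EPAS1 on chromosome 2 had a median difference of -0.055, with 18 negative and none called. The 3 PPAR genes were not called: differences were 0.27 ± 0.13 for PPARA, 0.11 ± 0.11 for PPARD and 0.13 ± 0.12 for PPARG (SE). PPARGC1A, a dim gene of the same list, was at 0.815 ± 0.15 (SE) and did not pass either (limma adjusted p 0.0841). The list had 13 positive differences and a median of 0.17, which was 0.10 without vector-only replicate 2. The calls of EPAS1 and AGPAT5 were also lost without any 1 array, with differences of 0.83 to 1.12 for EPAS1 and -1.34 to -0.91 for AGPAT5. Both were lost as well with either rescaling of the arrays, without dim clusters, over single-symbol clusters only, with every transcript cluster tested and without moderation. Adding the replicate number to the fit also ended both calls.

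No gene of the other 6 lists passed in limma. Counts at an unadjusted p under 0.05 are given for them beside 11.5% of all clusters with a symbol at that level (2450 of 21214). Among 15 other genes of droplet structure, 2 had an unadjusted p under 0.05, near the share of all clusters, and the median was -0.01 (-0.04 to 0.05 without single arrays). LDAH, a lipid droplet-associated hydrolase gene, measured 4.98 and 6.96 in the arrays labelled H1.3, against 8.27 and 8.10 in the vector-only arrays. Its arrays labelled H1.3 were 1.98 apart, and its difference of -2.21 ± 0.54 (SE) did not pass (limma adjusted p 0.146, range over the alternatives 0.145 to 0.863). The 30 measured neighbours of LDAH on chromosome 2 had a median difference of 0.04, with 13 negative, 17 positive and none called. TMT1A, a droplet-associated methyltransferase gene, differed by -0.64 ± 0.22 (SE).

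Among 16 other lipase genes, 8 were higher and 8 lower in mean level, 4 had an unadjusted p under 0.05, and the median was -0.01 (-0.02 to 0.10 without single arrays). DDHD2, a triacylglycerol hydrolase gene of neurons, was at -0.87 ± 0.15 (SE; limma adjusted p 0.0798, range over the alternatives that kept all arrays 0.0354 to 0.642). It lies on chromosome 8, as AGPAT5 does, and its neighbours were not examined. PNPLA3, a relative of PNPLA2 whose product binds ABHD5, was at 0.62 ± 0.12 (SE; limma adjusted p 0.0925, range over the alternatives 0.0736 to 0.802).

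Fatty acid oxidation genes and textbook PPAR targets had 15 negative and 5 positive differences over 20 genes, with a median of -0.12 and 2 at an unadjusted p under 0.05, near the share of all clusters. CPT1C, a brain form of carnitine palmitoyltransferase, was at -0.45 ± 0.16 and UCP2, a mitochondrial carrier gene, at -0.34 ± 0.12 (SE). Fatty acid synthesis genes had 16 positive differences of 19 and a median of 0.34, with 10 at an unadjusted p under 0.05. Without H1.3 replicate 2 that median was 0.20. Mean levels of the synthesis genes were 8.58 and 8.73 in the arrays labelled H1.3, against 8.20 and 8.22 in the vector-only arrays, with replicate 2 the higher in both. In that list ELOVL7, a fatty acid elongase gene, was at 0.73 ± 0.14 and THRSP, a lipogenic protein gene, at 2.23 ± 0.43 (SE), with limma adjusted p of 0.0903 and 0.0922. THRSP measured 9.96 and 9.77 in the arrays labelled H1.3, against 8.41 and 6.87 in the vector-only arrays, whose replicates were 1.54 apart. UCP2 and THRSP lie on chromosome 11, as DGAT2 does, and no neighbour median was taken for them.

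Of 19 measured hypoxia-inducible genes, a group to which HILPDA belongs, 16 had a negative difference and 4 an unadjusted p under 0.05. The median was -0.26, moving to -0.05 when vector-only replicate 1 was left out, to -0.39 when H1.3 replicate 1 was and to -0.41 when vector-only replicate 2 was. Mean levels of the list were 9.11 and 8.88 in the arrays labelled H1.3, against 9.56 and 9.04 in the vector-only arrays. Replicate 1 was thus the higher in both groups, and the part of replicate number in these values was not tested. BNIP3L, a mitophagy receptor gene, was at -0.64 ± 0.13 and EGLN3, a prolyl hydroxylase gene, at -0.57 ± 0.14 (SE), with limma adjusted p of 0.108 and 0.158. BNIP3L lies on chromosome 8, as AGPAT5 does, and its neighbours were not examined. Over 12 genes of lipophagy and chaperone-mediated autophagy, a route by which PLIN2 protein is degraded, 9 differences were positive, the median was 0.09 and 1 gene had an unadjusted p under 0.05. That median was 0.06 without H1.3 replicate 2 and 0.03 when vector-only replicate 2 was left out. SQSTM1, an autophagy receptor gene, was at 0.36 ± 0.12 and TFEB, a regulator of lysosomal genes, at 0.28 ± 0.12 (SE).

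**Figure D4:**
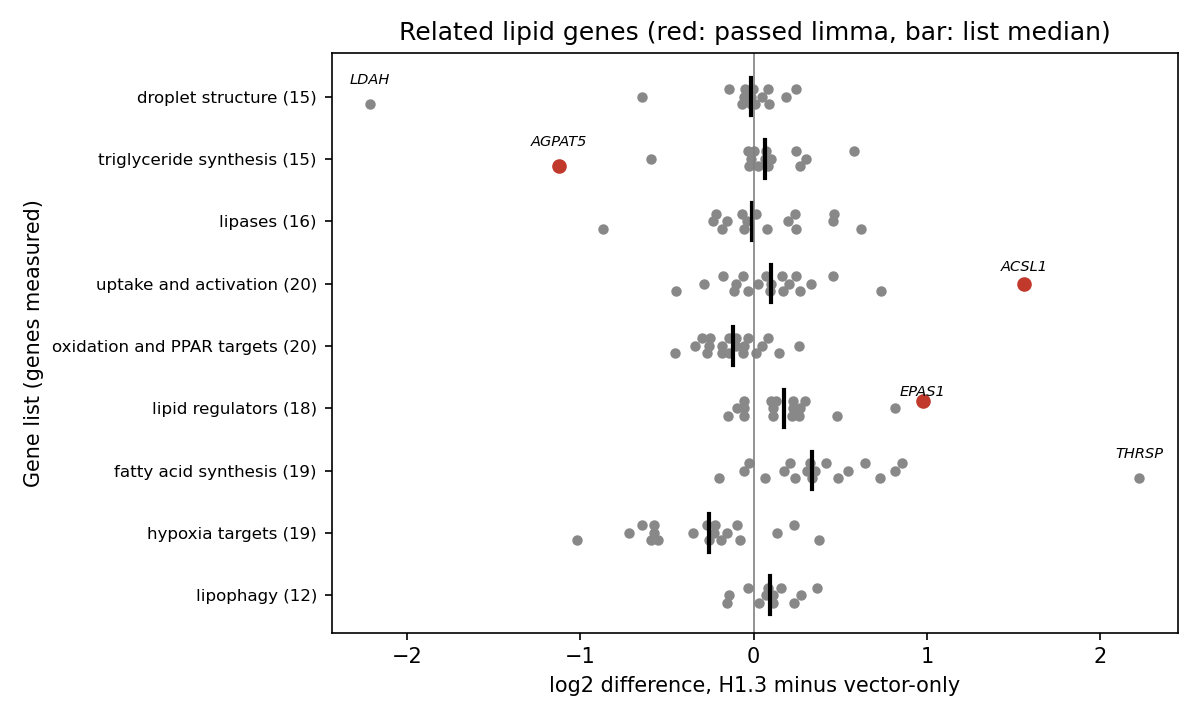
Log2 difference, arrays labelled H1.3 minus vector-only arrays (horizontal axis), of each measured gene in 9 related lists, 1 point per gene, red where limma's adjusted p was under 0.05, with a black bar at the list median. ACSL1 at 1.56 and EPAS1 at 0.97 rose and AGPAT5 at -1.12 fell, while LDAH at -2.21 and THRSP at 2.23 lay farther out without passing.

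The genes whose 4 values most resembled those of PLIN2 were found by the Euclidean distance between log2 values after subtracting each gene's own mean, over 4 arrays and 18408 genes. The 5 nearest were IL12A, a subunit gene of interleukin 12, at a distance of 0.32, PRTFDC1, a phosphoribosyltransferase-like gene, at 0.47, TNFRSF10D, a decoy receptor gene for the ligand TRAIL, at 0.49, GJA1, a gap junction connexin gene, at 0.54 and SELENOP, the gene of a selenium transport protein, at 0.55. The median distance over all genes was 2.25 and that of the next gene 0.56. IL12A measured 5.64 and 5.90 in the arrays labelled H1.3, against 8.19 and 8.07 in the vector-only arrays. Like PLIN2, each of these but SELENOP had its lower value in replicate 1 of the arrays labelled H1.3. Differences were -2.36 ± 0.14 for IL12A, -1.75 ± 0.25 for PRTFDC1, -1.70 ± 0.19 for TNFRSF10D, -1.89 ± 0.26 for GJA1 and -1.97 ± 0.15 for SELENOP (SE). In the arrays labelled H1.3 all of these genes lay below the median level of 6.84, as PLIN2 did. PRTFDC1 was dim on every array, and GJA1 lay below that median in its mean over the 4 arrays. TNFRSF10D lies on chromosome 8, as AGPAT5 does, and its neighbours were not examined. With 4 arrays such a likeness is a description, and since PLIN2 was chosen for its difference the genes near it share that difference by construction.

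**Figure D5:**
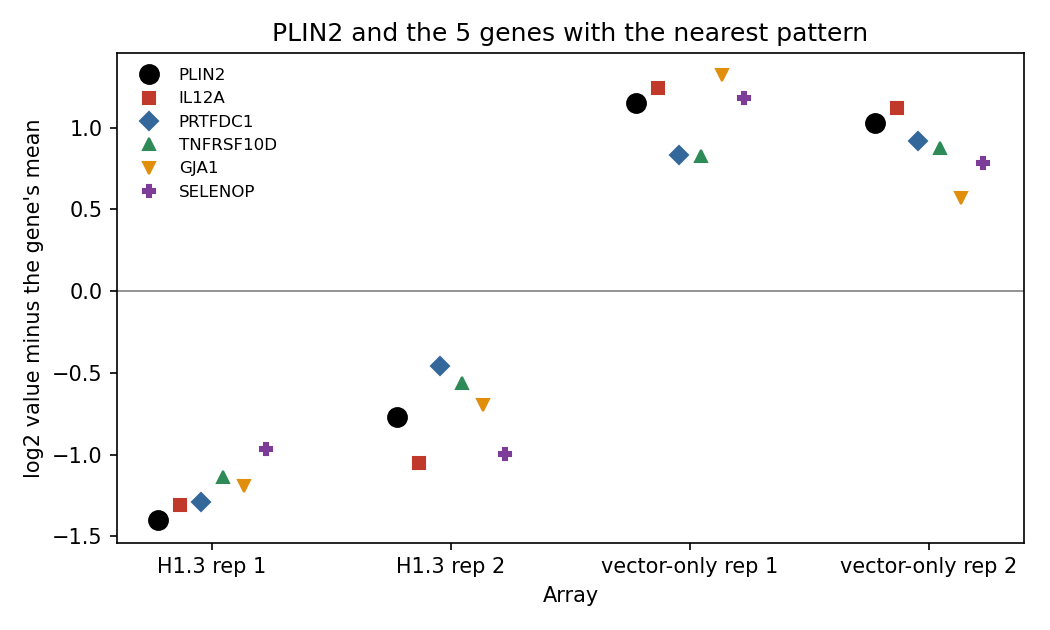
Log2 value minus the gene's own mean (vertical axis) on each of the 4 arrays for PLIN2 (large black circles) and the 5 genes nearest to it. All 6 genes lie below their mean in the arrays labelled H1.3 and above it in the vector-only arrays, and PLIN2 and IL12A lie 0.32 apart in total distance.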

How the data were processed

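The authors deposited log2 values of 33297 transcript clusters on 4 arrays, given to 2 decimals. RMA, which subtracts background, equalises array distributions and summarises probes, and Affymetrix Expression Console are named per the submitters' processing notes, without versions. An exon array is named in the series text, but the cluster identifiers are those of a human gene array. Background and single probes were not examined, as no probe intensity was used. The number of arrays limits the precision (median SE of a difference 0.13).

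Names came from the platform annotation, updated to RefSeq on GRCh38.p14 for 19429 of 19460 single-symbol clusters; 1754 clusters had several symbols and 12083 none here. In R 4.3.3, limma 3.58.1 (lmFit, eBayes, two-sided, 2 residual and 5.16 prior degrees of freedom) gave arrays labelled H1.3 minus vector-only arrays, with Benjamini-Hochberg adjustment over 21214 clusters. A gene with several clusters was represented by the one of highest mean. The members and all lists were chosen with earlier results of these data known. Named genes are all members, H1-3 and the 5 genes nearest to PLIN2. Per related list, up to 3 passing genes or else the 2 of smallest p are named. PLIN1, the PPAR genes, PPARGC1A and the markers PAX8, MUC16 and CFD are named outside this rule, after their values were seen. The labels state no shared batch, and the deviations of same-numbered arrays correlated at only 0.06 over the clusters with a symbol. No pairing by replicate number was therefore assumed. This figure does not exclude a shared replicate direction in single lists, and the list means for hypoxia and fatty acid synthesis had one. The steps were tested on simulated data. Alternatives changed the moderation, scaling, filter, threshold or set of clusters, added the replicate number, or left out each array. Python 3.11.15 with matplotlib 3.10.9 drew the figures.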

Additional observations from a re-analysis of the deposited data

How the results depend on the processing

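Of the 9 measured genes, 6 kept the sign of their difference in every one of the 13 alternatives that tested them; PLIN4 (0.00 without vector-only replicate 1), PNPLA2 and G0S2 did not, each with a main difference of 0.09 or less. PLIN2 stayed between -2.49 and -1.86. The count of members called was 1 in the fit reported and 0 without moderation, with all transcript clusters, with the replicate block and without any 1 array (0 to 0). H1-3 stayed below 0 and uncalled throughout.

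In the fit reported, 51 clusters were called higher and 56 lower. Quantile normalizing the arrays again gave 29 higher and 38 lower, shifting each array to one median 19 and 31, dropping dim clusters 6 and 19, testing every transcript cluster 1 and 3, using no moderation 6 and 3, a robust intensity trend 107 and 138, and a threshold of 0.10 gave 135 and 176. Of the related genes, 2 were called higher and 1 lower. These became 4 and 3 under the robust intensity trend, 7 and 2 at the threshold of 0.10, 0 and 0 with no moderation or with every transcript cluster, and 1 and 0 under either rescaling, when dim clusters were dropped and over single-symbol clusters. Leaving out each array gave 0 to 0 for every count in limma, while 1292 to 2367 clusters had an unadjusted p under 0.05; there a single array is taken to vary as the other group does. The replicate block, with the replicate number as a term, also left 0 clusters, 0 members and 0 related genes called by limma, while 2195 clusters had an unadjusted p under 0.05. Apart from fewer arrays, more clusters or another threshold by construction, the cause of these shifts was not tested. With 7 genes on either side the neighbour median of AGPAT5 was -0.61. With 2 arrays per group, small differences cannot be told from replicate spread.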
